A study of Homo sapiens with 6 samples.

Results

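The regions described here are the PAI-1 ChIP-seq peaks on human chromosomes 19 and 22, in hg19 coordinates. All peaks on these chromosomes were taken from the peak lists of 4 libraries, and a peak listed more than once with the same start and end was counted once. This gave 2435 of 96423 peaks for RT112 replicate 1, 1578 of 60227 for RT112 replicate 2, 2822 of 109287 for UM-UC-3 replicate 1 and 2998 of 114094 for UM-UC-3 replicate 2, or 9833 of 380031 over all libraries. The choice used position and no measured value. RT112 and UM-UC-3 are established human bladder cancer cell lines, and the labels name no treatment or genetic change for either. Of the 6 samples in the series, 4 were ChIP libraries from nuclear extracts with an antibody against PAI-1, 2 for each cell line and numbered as biological replicates in the labels. The other samples, 1 input library for each line, were not analysed here. The lists hold no read counts, so sequencing depth is unknown for every library and counting error cannot be given as an interval. Copy number, the share of each chromosome to which short reads can be mapped uniquely, and the GC bias of the libraries were not measured, and their part in the densities below was not tested.

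PAI-1 is a secreted serine protease inhibitor of the tissue-type and urokinase-type plasminogen activators, and the study asked where it lies on chromatin inside the nucleus. In ChIP-seq, a peak is a stretch of the genome over which the peak caller found more immunoprecipitated DNA fragments than its local background. Chromosomes 19 and 22 are small and rich in genes, GC bases and Alu repeats, and chromosome 19 carries long clusters of related genes, among them C2H2 zinc finger, kallikrein, CEACAM and leukocyte receptor genes.

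Sequences are shown for a pair of high scoring peaks. The score of a peak was read as a p-value or q-value on the negative log10 scale, so that a higher score stands for a smaller p or q, and scores were ranked within each library. The sequences printed are the best ranked peak found in both RT112 libraries on each chromosome, chosen to show the contrast between a sequence made largely of bases of a single class, here pyrimidines (C and T), and one of mixed bases; a pair chosen so does not give the share of each kind. Both are the central 300 bases of the peak on the GRCh37 plus strand, and capitals mark runs of at least 10 purines (A and G) or 10 pyrimidines without interruption.
chr19:39712152-39712451, best in both RT112 replicates: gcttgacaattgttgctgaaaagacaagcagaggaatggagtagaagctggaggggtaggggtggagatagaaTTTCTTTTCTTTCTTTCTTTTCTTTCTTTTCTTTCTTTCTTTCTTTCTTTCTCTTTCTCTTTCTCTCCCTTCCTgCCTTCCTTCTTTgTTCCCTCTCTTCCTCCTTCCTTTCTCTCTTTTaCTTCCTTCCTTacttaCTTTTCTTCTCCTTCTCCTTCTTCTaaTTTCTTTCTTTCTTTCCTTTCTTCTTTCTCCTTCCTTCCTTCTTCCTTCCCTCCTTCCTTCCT
chr22:46044166-46044465, best in both RT112 replicates: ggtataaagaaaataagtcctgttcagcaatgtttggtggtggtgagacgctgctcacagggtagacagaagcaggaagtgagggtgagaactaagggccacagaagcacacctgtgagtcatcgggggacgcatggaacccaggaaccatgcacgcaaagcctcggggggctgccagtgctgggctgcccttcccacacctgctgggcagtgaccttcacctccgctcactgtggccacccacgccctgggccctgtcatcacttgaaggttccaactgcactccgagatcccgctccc
The peak of chromosome 19, found in RT112 only with scores of 79.4 and 46.9, was 79.7% pyrimidine with an uninterrupted run of 74 bases, and lay 17.2 kb from SYCN, a zymogen granule protein gene. The best RT112 peak of chromosome 22 was of another kind. Its printed bases were 52.3% purine with no such run, their GC content was 59.0%, and the peak scored 43.8 and 35.7, with none in UM-UC-3; it lay 23.1 kb from ATXN10, the gene altered in a form of spinocerebellar ataxia.

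The skew towards 1 base class was then counted over all peaks, as a measure chosen after sequences of the best ranked peaks were seen. In the 200 bp around the peak midpoint, at least 70% of the bases were of a single class in 4.48% of the peaks for RT112 replicate 1, 5.96% for RT112 replicate 2, 3.05% for UM-UC-3 replicate 1 and 3.14% for UM-UC-3 replicate 2. These are 109, 94, 86 and 94 peaks, beside 1.61% of all 200-bp windows on the chromosomes. Skewed windows were thus a small minority of the peaks in every library. On the other autosomes the shares were 1.54%, 1.91%, 1.21% and 1.25% of peaks, beside 0.848% of windows. Among peaks on chromosomes 19 and 22 in the highest 10% of scores of their library, the share was 17.6%, 22.9%, 10.9% and 11.0%, and in the lowest 25% it was 0.472%, 1.67%, 1.36% and 1.09%. It was 12.9%, 16.3%, 13.5% and 12.1% among peaks that shared at least 1 bp with one of the other cell line, and 3.72%, 4.89%, 2.28% and 2.50% among those that did not. How uniquely reads map to such sequence was not measured, and its part in these shares was not tested.

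Chromosomes 19 and 22 held fewer peaks per Mb than the average autosome in all 4 libraries. Together they make up 3.38% of autosomal sequence outside assembly gaps (90.7 Mb) and hold 10.04% of the autosomal protein-coding genes (1930 of 19229), whereas they held 2.69% and 2.79% of the autosomal peaks for the RT112 libraries and 2.71% and 2.76% for the UM-UC-3 libraries. Relative density below means peaks per Mb outside gaps divided by the autosomal mean of the same library, so that 1 is the autosomal mean. On chromosome 19 it was 0.774 and 0.795 for RT112 (mean 0.785 ± 0.0149, SD, n = 2) and 0.808 and 0.824 for UM-UC-3 (0.816 ± 0.0108). On chromosome 22 it was 0.831 and 0.875 for RT112 (0.853 ± 0.0308) and 0.793 and 0.807 for UM-UC-3 (0.800 ± 0.00989).

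The cell lines did not overlap on chromosome 19, where UM-UC-3 was higher, nor on chromosome 22, where RT112 was higher. The difference, UM-UC-3 minus RT112, was 0.0311 on chromosome 19 and -0.0530 on chromosome 22, each with p = 0.333 by a two-sided exact permutation test over the libraries, the smallest value that 2 against 2 libraries can give. Over both chromosomes together the difference was -0.00129 (exact permutation p = 1). Counted over only those peaks found in the other replicate, the chromosome 19 difference turned to -0.0543, with RT112 higher. These p-values measure only the spread between the deposited libraries, and peaks and bins of a library are not replicates of it.

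Chromosomes 19 and 22 have the highest and the third highest gene density of the 22 autosomes, at 26.5 and 12.9 protein-coding genes per Mb beside an autosomal mean of 7.16, and the highest GC content of all, at 48.4% and 48.0% beside 40.99%. In RT112 they had the second and the third lowest relative density, above chromosome 4 (0.581). In UM-UC-3 they were the fifth and the fourth lowest, above chromosomes 4 (0.733), 14 (0.750) and 18 (0.778). Chromosome 17, with 15.3 genes per Mb and a GC content of 45.5%, was nearer to the mean, at 0.924 ± 0.0126 for RT112 and 0.983 ± 0.0238 for UM-UC-3. Chromosome 16, with 10.9 genes per Mb and 44.8% GC, was above the mean, at 1.15 ± 0.0132 and 1.02 ± 0.00232. Chromosome 20, with 9.19 genes per Mb and 44.1% GC, was at 1.76 ± 0.0896 and 0.918 ± 0.0163.

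**Figure D1:**
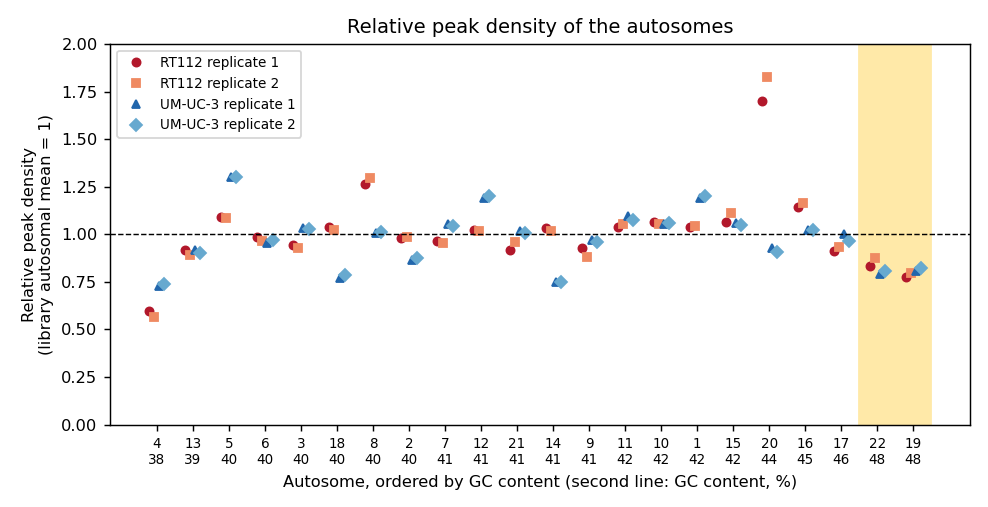
Relative density of peaks (peaks per ungapped Mb over the library's autosomal mean, vertical axis) on the 22 autosomes in order of GC content (horizontal axis), with 1 point per library and chromosomes 19 and 22 shaded. The points of both chromosomes lie below the dashed line at 1 in all 4 libraries, between 0.774 and 0.875.

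The deficit on chromosome 19 was uneven between its arms, and differed between the lines. On the short arm (19p, 25 bins of 1 Mb), relative density was 0.468 and 0.441 for RT112 (0.454 ± 0.0186) and 0.658 and 0.678 for UM-UC-3 (0.668 ± 0.0144). The UM-UC-3 libraries were both higher, by 0.214 on average (exact permutation p = 0.333, the smallest possible), which is over 10 times the SD of either line. On the long arm (19q, 31 bins), it was 1.02 and 1.07 for RT112 (1.05 ± 0.0400) and 0.918 and 0.932 for UM-UC-3 (0.925 ± 0.00984), a difference of -0.121 in the other direction (p = 0.333 by the same exact test). RT112 was therefore at about the autosomal mean on 19q and well below it on 19p, while gene density was alike, at 26.3 genes per Mb on 19p and 26.8 on 19q. GC content was higher on 19p, at 49.6%, than on 19q, at 47.5%. The ratio of 19q to 19p was 2.18 and 2.43 for RT112 and 1.39 and 1.37 for UM-UC-3. The long arm of chromosome 22 (35 bins) was at 0.831 and 0.876 for RT112 and 0.799 and 0.813 for UM-UC-3, with a difference of -0.0477 (exact permutation p = 0.333). Copy number and cell line cannot be told apart in these differences.

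Bin by bin, both UM-UC-3 libraries lay above both RT112 libraries in 35 of the 91 bins (38.5%), near the 39.0% of all autosomal bins. That count was unevenly spread, with 21 of the 25 bins of 19p, 6 of the 31 bins of 19q and 8 of the 35 bins of chromosome 22. Both RT112 libraries lay above both UM-UC-3 libraries in 21 of the 91 bins (23.1%, beside 33.0% of all autosomal bins), and only 3 of these were on 19p.

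The gene-rich end of 19p held few peaks. The first 5 Mb of chromosome 19 hold 163 protein-coding gene starts, with 29 to 39 per bin and a GC content of 54.1% to 59.1%. They held 26 and 16 peaks for the RT112 libraries and 34 and 40 for the UM-UC-3 libraries, at relative densities of 0.156, 0.154, 0.178 and 0.200. In absolute terms the lines differed by far less here than over 19p as a whole. Densities this low leave little room for a larger difference. The first Mb, with the genes of neutrophil elastase (ELANE) and basigin (BSG), was lowest in RT112, at 0.0631 and 0.101, beside 0.165 and 0.105 in UM-UC-3. The second Mb, with 39 gene starts among them that of the tumour suppressor kinase STK11, had the lowest mean in UM-UC-3, at 0.129 and 0.124, beside 0.178 and 0.142 in RT112. The fourth Mb, with GNA11, a G protein alpha subunit, and EEF2, translation elongation factor 2, was at 0.119 and 0.142 for RT112 and 0.155 and 0.173 for UM-UC-3. In all, 11 of the 91 bins (12.1%) were below 0.5 in all 4 libraries, beside 2.52% of all autosomal bins; 8 of these lay on 19p, 3 on chromosome 22 and 0 on 19q. Taken by line, 17 bins were below 0.5 in both RT112 libraries (18.7%, beside 7.20% of all autosomal bins) and 13 in both UM-UC-3 libraries (14.3%, beside 3.79%). In 49 of the 91 bins (53.8%) all 4 libraries were below 1, beside 30.1% of all autosomal bins.

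Next to the centromere the arm looked different. The 5 bins of 19p from 20000001 to 25000000 hold zinc finger gene clusters and are AT-richer, with a GC content of 39.9% to 41.4% and 2 to 10 gene starts each. There UM-UC-3 was between 0.800 and 1.39, near or above its autosomal mean, and RT112 was between 0.2998 and 0.665, with no overlap in any of these bins. Across the centromere, the bin from 28000001 to 29000000, with no protein-coding gene start, was at 0.979 and 0.997 for RT112 and 1.26 and 1.43 for UM-UC-3.

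The fullest bins were mostly poor in genes. The highest in all 4 libraries was chr22:27000001-28000000, with the lens crystallin genes CRYBB1 and CRYBA4 near its start, at 2.02 and 2.56 for RT112 and 1.68 and 1.61 for UM-UC-3. Next in RT112 came chr19:57000001-58000000, at 1.78 and 2.23 beside 1.03 and 1.16 in UM-UC-3. With 30 gene starts, including many zinc finger genes and the imprinted gene PEG3, this bin was rich in genes and high in RT112 alone. The bin chr19:29000001-30000000, with UQCRFS1, the iron-sulfur subunit of respiratory complex III, was at 1.90, 1.99, 1.55 and 1.26 in RT112 replicates 1 and 2 and UM-UC-3 replicates 1 and 2, and chr19:32000001-33000000, with ZNF507, was at 1.66, 1.95, 1.496 and 1.48 in the same order.

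**Figure D2:**
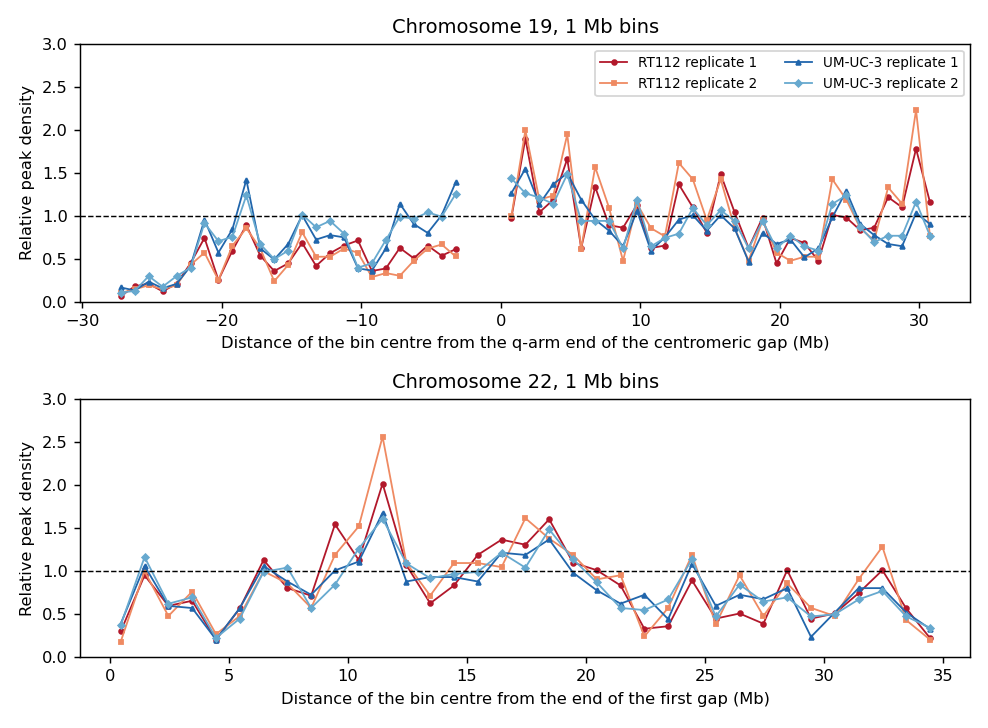
Relative density of peaks (vertical axis) in 1 Mb bins along chromosomes 19 and 22, with a line for each of the 4 libraries, against distance in Mb from the q-arm end of the centromeric gap (chromosome 19) or from the end of the first assembly gap (chromosome 22). The first 5 Mb of 19p lie low in all libraries, at 0.156, 0.154, 0.178 and 0.200 together, the RT112 lines run below the UM-UC-3 lines in most of 19p, and the tallest point is the chromosome 22 bin at 2.02 and 2.56 in RT112.

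Bins with more GC tended to hold fewer peaks in both lines, though in RT112 the bins of 38% to 41% GC were also low. Over the 91 bins, with replicates averaged, Spearman's rho between relative density and GC content was -0.589 for RT112 and -0.786 for UM-UC-3 (Pearson's r -0.525 and -0.759). For the number of gene starts per bin it was -0.347 and -0.491 (Pearson's r -0.346 and -0.473). GC content and gene starts were themselves related, at a rho of 0.592. With GC content held constant (partial rank correlation), the relation to genes was 0.00260 for RT112 and -0.0515 for UM-UC-3, and with genes held constant the relation to GC content was -0.508 and -0.706. By chromosome, the relation to genes at constant GC content differed in sign. It was 0.133 for RT112 and -0.289 for UM-UC-3 on chromosome 19, and -0.226 and 0.0219 on chromosome 22. These are descriptions over bins that share libraries, depth and base composition, and no p-value is attached to them. The relation to GC held on each arm, at -0.599 and -0.872 on 19p, -0.635 and -0.787 on 19q and -0.687 and -0.742 on chromosome 22, with RT112 first. A negative relation was not particular to these chromosomes: rho with GC content, with RT112 first, was -0.383 and -0.569 on chromosome 16, -0.490 and -0.549 on chromosome 17 and -0.410 and -0.0455 on chromosome 20. Over the 2603 bins of all the other autosomes together, it was 0.279 and -0.0317. The bins of chromosomes 19 and 22 kept much the same order in both lines, with a rho of 0.766 between them.

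Beside bins of like GC content on other autosomes, the bins of chromosomes 19 and 22 differed little when weighted over all GC classes, but RT112 was lower in the AT-richer classes. In bins of at least 50% GC, relative density averaged 0.509 for RT112 and 0.546 for UM-UC-3 over 33 bins of chromosomes 19 and 22, and 0.466 and 0.474 over 85 bins of other autosomes. In bins of 47% to 50% GC it was 0.813 and 0.797 over 25 bins, beside 0.925 and 0.835 over 141 bins elsewhere. In bins of 44% to 47% GC it was 1.25 and 1.07 over 19 bins, beside 1.19 and 0.984 over 322 bins. Weighted over all GC classes, the peaks on chromosomes 19 and 22 came to 0.950 ± 0.00590 of the density of other autosomal bins of the same class for RT112 and 1.05 ± 0.0164 for UM-UC-3. By the same measure 19p stood at 0.627 ± 0.0466 for RT112 and 0.969 ± 0.0236 for UM-UC-3, and 19q at 1.15 ± 0.00885 and 1.14 ± 0.0139. The GC bias of the libraries was not measured, and its part in these values was not tested.

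**Figure D3:**
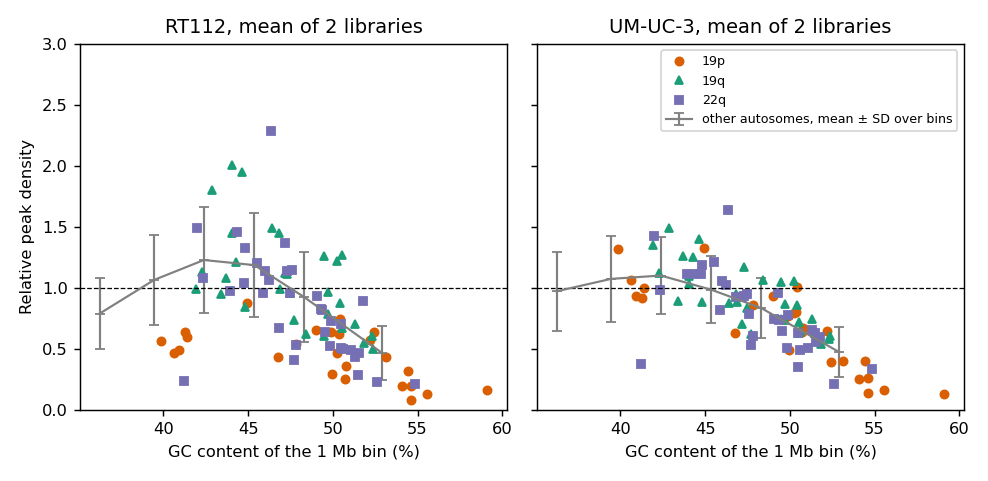
Relative density of 1 Mb bins (vertical axis, mean of 2 libraries) against GC content in percent (horizontal axis) for RT112 and UM-UC-3, with bins of 19p, 19q and 22q in colours and, in grey, the mean ± SD over bins of the other autosomes in each GC class. From 44% GC upwards, mean density falls from class to class in both lines. Below 44% GC the grey means of RT112 rise with GC content, and the RT112 bins of 19p lie under them at low GC content.

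Within the chromosomes, and with all annotated genes counted, peaks were fewer near gene starts and more frequent in introns and between genes than the share of bases in each class. Each peak was first given the first class it overlapped in the order promoter (within 3 kb of any transcript start), 5′ UTR, 3′ UTR, other exon, intron, 3 kb downstream and distal intergenic. Promoters then took 29.2 ± 1.23% of the peaks for RT112 and 29.6 ± 0.510% for UM-UC-3 (SD, n = 2), introns 39.2 ± 1.71% and 39.5 ± 0.135%, and distal intergenic sequence 23.3 ± 0.452% and 23.2 ± 0.359%. Wide peaks favour the first classes under that order, so the comparison with bases used the class at the midpoint. By midpoint, promoters held 28.6%, 26.7%, 28.2% and 28.9% of the peaks in RT112 replicates 1 and 2 and UM-UC-3 replicates 1 and 2, all below the 37.9% of bases in promoters. The ratio of these shares was 0.730 for RT112 and 0.753 for UM-UC-3. On the other autosomes promoters held 14.9% and 14.98% of peaks beside 18.1% of bases, at ratios of 0.820 and 0.827. Introns on chromosomes 19 and 22 held 41.6 ± 1.33% and 41.6 ± 0.213% of midpoints beside 35.9% of bases, and distal intergenic sequence held 23.8 ± 0.536% and 23.5 ± 0.347% beside 19.1%. With protein-coding genes only, and the first class overlapped, the intron share was 32.2% for RT112 and 33.7% for UM-UC-3 beside 32.0% of bases, so that RT112 showed almost no excess. With all genes, the first class overlapped gave lower intron shares than the midpoint did. Shares by midpoint were not computed for protein-coding genes only, so the effect of the gene set on the intron excess was not separated from that of the class rule.

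**Figure D4:**
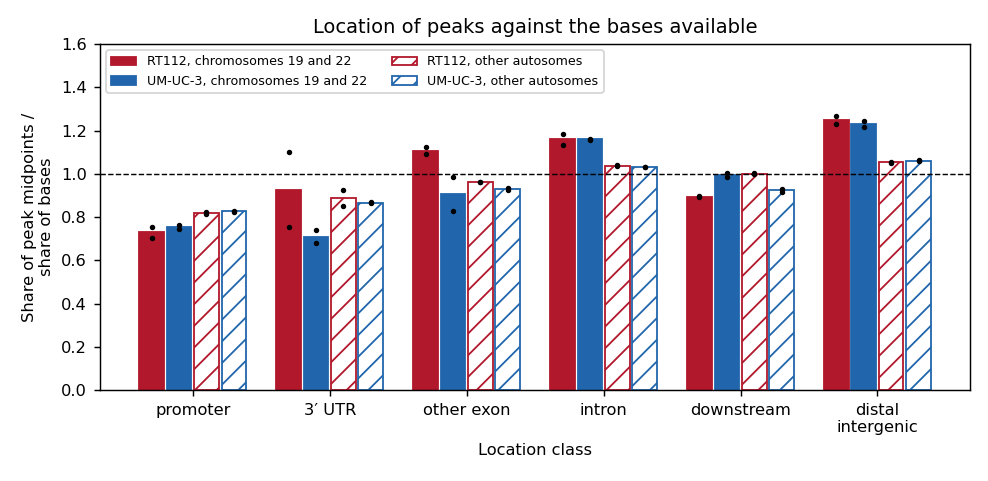
Share of peak midpoints in each location class divided by the share of bases in it (vertical axis), for chromosomes 19 and 22 (filled bars) and the other autosomes (hatched bars), with bars for the mean of 2 libraries and dots for single libraries. Promoters lie below 1 (0.730 for RT112 and 0.753 for UM-UC-3 on chromosomes 19 and 22), and introns and distal intergenic sequence above it.

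Immediately at the starts of protein-coding genes, mean peak cover on chromosomes 19 and 22 was lower than further away, by less than elsewhere and not on both sides of the start in RT112. Within 500 bp of a start, 0.363% and 0.241% of bases were covered by a peak for the RT112 libraries and 0.304% and 0.345% for the UM-UC-3 libraries, against 0.444%, 0.279%, 0.517% and 0.593% at 2 to 3 kb. The ratio of near to far was 0.817 and 0.861 for RT112 (0.839 ± 0.0313) and 0.588 and 0.581 for UM-UC-3 (0.585 ± 0.00513). RT112 was higher than UM-UC-3 in both libraries. The sides of the start differed: in the 500 bp before it cover was 0.206% and 0.128% for RT112 and 0.321% and 0.369% for UM-UC-3, and in the 500 bp after it 0.519% and 0.353% for RT112, above the cover at 2 to 3 kb, and 0.287% and 0.320% for UM-UC-3. On the other autosomes the ratio was 0.420 ± 0.0398 and 0.386 ± 0.0156, lower than on chromosomes 19 and 22 in 4 of 4 libraries. Few peaks stand behind these values, as only 28, 20, 28 and 31 peaks touched such a 500-bp window, at 30, 20, 29 and 32 of the 1930 gene starts.

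**Figure D5:**
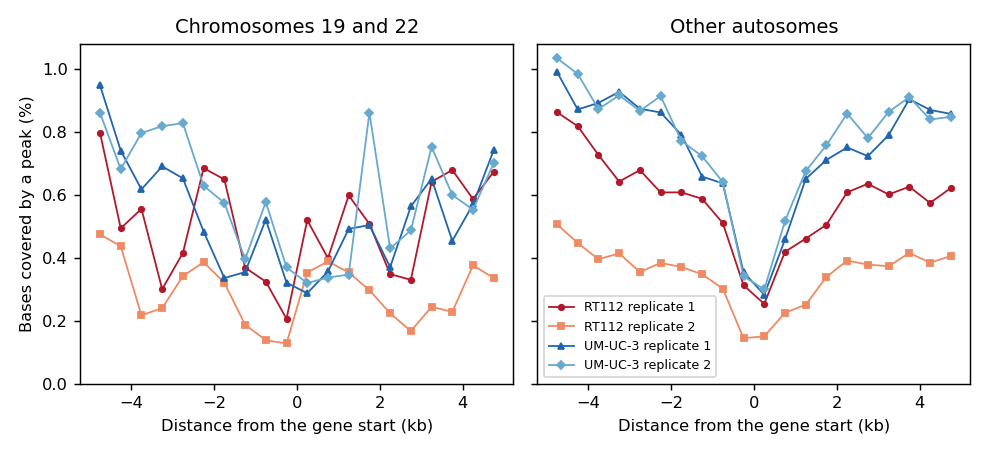
Percent of bases covered by a peak (vertical axis) in 500-bp steps from 5 kb before to 5 kb after the starts of protein-coding genes (horizontal axis, kb), for chromosomes 19 and 22 (left) and the other autosomes (right), with a line for each library. On chromosomes 19 and 22 cover is low in the 500 bp before the start, and in the RT112 libraries it is back at 0.519% and 0.353% in the 500 bp after it.

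The same lack of very GC-rich sequence was seen at the scale of single peaks. Of all 200-bp windows on the chromosomes 11.8% had a GC content of at least 60%, whereas the windows centred on peaks reached it in 1.23%, 0.951%, 1.45% and 1.37% of peaks in RT112 replicates 1 and 2 and UM-UC-3 replicates 1 and 2. Windows of 45% to 50% GC were over-represented, at 25.7%, 26.1%, 22.9% and 23.3% of peaks beside 19.7% of all windows. Below 35% GC the lines were on opposite sides of the 9.81% of all windows, with 7.598% and 6.65% of the RT112 peaks and 11.7% and 11.7% of the UM-UC-3 peaks. The median GC content was 47% and 47% for RT112 and 46% and 46% for UM-UC-3, beside 48.5% over all windows.

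Peak scores on the chromosomes ranked somewhat higher than elsewhere in 3 of 4 libraries. The median percentile of the score within its library was 51.99 for RT112 replicate 1, 46.1 for RT112 replicate 2 and 52.01 and 51.8 for the UM-UC-3 libraries, beside 43.1, 46.1, 41.97 and 41.8 on the other autosomes. The median score was 4.12 and 4.09 for RT112 and 4.07 and 4.05 for UM-UC-3, beside 3.80, 4.09, 3.88 and 3.85 on the other autosomes. A score of at least 10 was reached by 11.6%, 11.3%, 10.6% and 9.61% of peaks, above the 10.01%, 8.68%, 9.14% and 9.19% of the other autosomes in each library, and by margins that were smallest in UM-UC-3 replicate 2. The peaks were narrow, with median widths of 294, 263, 273 and 269 bp, and covered 0.877%, 0.510%, 0.951% and 0.992% of the bases. The highest score of each library was 79.4, 49.5, 44.05 and 54.8.

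Peaks were refound far more often in the other replicate than in the other cell line. In RT112, 40.3% of those in replicate 1 shared at least 1 bp with a replicate 2 peak, and 62.4% in the reverse direction, where replicate 2 has far fewer peaks. UM-UC-3 stood at 72.2% and 68.0%. On the other autosomes the shares were 38.1% and 61.2% for RT112 and 74.9% and 71.9% for UM-UC-3, so that RT112 was slightly above and UM-UC-3 slightly below. Only 8.30% and 9.32% of the RT112 peaks overlapped a peak of either UM-UC-3 library, and 6.80% and 6.64% of the UM-UC-3 peaks a peak of either RT112 library. Over the 4 pairs of libraries from different lines, in both directions, the share was 3.94% to 7.79%, with a mean of 6.05%, beside 3.31% to 6.35% and a mean of 5.06% on the other autosomes. Peaks with a counterpart in every one of the other libraries numbered 73, 74, 73 and 72, or 3.00%, 4.69%, 2.59% and 2.40%, beside 2.17%, 3.37%, 1.84% and 1.77% elsewhere, and their median scores were 7.43, 6.56, 6.61 and 6.61. High scores went with recurrence. Of the peaks in the highest 10% of scores of their library, 87.1%, 84.9%, 95.03% and 93.5% were found in the other replicate of the line, and of the lowest 25%, 15.7%, 48.9%, 52.6% and 51.2%.

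Among the best ranked peaks of all 4 libraries or of a single line, some lay in genes and others far from any. On chromosome 19, chr19:41520744-41521299 in CYP2B6, a drug-metabolising cytochrome P450, scored 40.8 and 24.0 for RT112 and 33.6 and 37.6 for UM-UC-3. The peak chr19:42653573-42654006 overlapped POU2F2, which encodes the lymphoid transcription factor OCT2, and scored 33.8, 35.2, 23.8 and 34.4 in the same order. On chromosome 22, chr22:33374215-33374561 lay in an intron of the synapsin gene SYN3, with scores of 24.4, 25.8, 14.6 and 19.9. An intergenic peak at chr22:27984796-27985117, 159.1 kb from MN1, a gene rearranged in meningioma and leukaemia, scored 13.0 and 10.8 for RT112 and 21.3 and 28.4 for UM-UC-3. The intronic peak chr22:44116525-44116782 of EFCAB6 scored 37.02 and 37.1 for RT112 and 9.65 and 9.60 for UM-UC-3. Scores depend on the depth of each library and were not compared between lines.

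Fewer genes on the chromosomes carried a peak than in the genome as a whole. A peak inside the gene body or up to 3 kb from it was present in both RT112 libraries for 454 of 1930 genes (23.5%, beside 40.4% of all autosomal genes) and in both UM-UC-3 libraries for 669 (34.7%, beside 54.2%). All 4 libraries had a peak at 302 of the 1930 genes, a lower share than the 6357 of 19229 (33.1%) of all autosomal genes. None was found in any library at 787 genes (40.8%, beside 25.9%). Genes on the chromosomes are also shorter, with a median length of 17.1 kb against 27.6 kb over all autosomes. Within classes of length the shares were lower in 4 of 4 classes in RT112 and in 3 of 4 in UM-UC-3. Among genes of 30 to 100 kb, 39.8% for RT112 and 59.5% for UM-UC-3 had a peak in both replicates, beside 54.6% and 76.1% on the other autosomes. For genes of 10 to 30 kb the shares were 18.6% and 29.9% beside 22.9% and 38.9%. Among genes over 100 kb they were 83.0% and 98.9% beside 91.0% and 98.4%, but such genes make up only 4.56% of the genes here and 19.8% elsewhere. A peak within 3 kb of the gene start in both replicates was rare, at 72 genes for RT112 (3.73%, beside 4.01% of all autosomal genes) and 128 for UM-UC-3 (6.63%, beside 9.12%).

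The gene families of the chromosomes were not equally covered. C2H2 zinc finger genes, which encode DNA-binding proteins many of which silence transposable elements, carried a peak in both replicates at 84 of 253 (33.2%) in RT112 and 150 of 253 (59.3%) in UM-UC-3, beside 23.5% and 34.7% of all genes on the chromosomes and 40.4% and 54.2% of all autosomal genes. The counts of the families below, given for RT112 and then UM-UC-3, stand beside the same shares. Zinc finger genes are longer, with a median of 25.2 kb against 17.1 kb over all genes on the chromosomes. No family was compared within classes of length. The relative density over the zinc finger genes was 0.840 and 0.850 for RT112 and 0.982 and 0.958 for UM-UC-3, above the 0.684, 0.703, 0.707 and 0.720 over all genes of the chromosomes. In the leukocyte receptor cluster of 19q, which encodes the LILR and KIR receptors of immune cells, the numbers were 11 and 10 of 31 genes, and the relative density was 1.36 and 1.59 for RT112 and 0.819 and 0.828 for UM-UC-3. The kallikreins, secreted serine proteases, had a peak in both replicates at 7 and 5 of 15 genes, with 1.59 and 2.29 for RT112 and 1.25 and 0.929 for UM-UC-3, from only 7 to 10 peaks per library. The cytochrome P450 genes had 7 and 8 of 14, with 1.38 and 1.62 for RT112 and 1.04 and 1.15 for UM-UC-3. Both RT112 libraries were above both UM-UC-3 libraries over the leukocyte receptor, kallikrein, cytochrome P450, APOL and APOBEC3 genes. They were below both over the zinc finger genes. Such an order was frequent: RT112 was above in 33.0% and UM-UC-3 in 39.0% of all autosomal 1 Mb bins. No such share was computed over gene families. The leukocyte receptor and kallikrein genes lie on 19q, which as a whole was at 1.02 and 1.07 for RT112 and 0.918 and 0.932 for UM-UC-3. CEACAM and PSG genes, which encode cell adhesion and pregnancy-specific glycoproteins, had 11 and 11 of 22, with 1.41 and 1.01 for RT112 and 1.097 and 0.971 for UM-UC-3, where the lines overlapped. The APOL genes of chromosome 22 had 2 and 5 of 6, with 2.16 and 2.07 for RT112 and 0.939 and 0.900 for UM-UC-3. These densities rest on only 10, 6, 5 and 5 peaks. The lipoprotein genes APOE, APOC1, APOC2 and APOC4 of chromosome 19 had 0 of 4 in either line. They are short, with a median length of 3.57 kb beside 15.1 kb for the APOL genes, so few peaks could fall on them. The APOBEC3 cytidine deaminases had 1 and 1 of 7, with 0.545 and 0.873 for RT112 and 0.474 and 0.454 for UM-UC-3, from 2 peaks per library. Many members of these families are similar in sequence, so that reads which map to several of them can change the peaks called there.

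Of the 38 genes of the cancer and urothelium list, 12 (31.6%) had a peak in both RT112 libraries and 17 (44.7%) in both UM-UC-3 libraries, beside 23.5% and 34.7% of all genes on the chromosomes. These genes are longer, with a median of 46.7 kb, and peaks lay on them at relative densities of 0.414 and 0.562 for RT112 and 0.567 and 0.585 for UM-UC-3. The insulin receptor gene INSR (chr19:7112266-7294425) had 1 and 0 peaks for the RT112 libraries and 9 and 10 for the UM-UC-3 libraries. DNMT1, the maintenance DNA methyltransferase, had 2, 2, 4 and 7 peaks in RT112 replicates 1 and 2 and UM-UC-3 replicates 1 and 2. On chromosome 22, the tumour suppressor gene NF2 had 3, 3, 3 and 3 peaks in the same order, and the metalloproteinase inhibitor gene TIMP3, which lies inside an intron of SYN3 on the other strand, had 2, 3, 4 and 2. Over the 40 genes of this list and the plasminogen list, 9 of the 12 with a peak in both RT112 libraries had one in all 4 libraries. The same held for 302 of 454 genes on the chromosomes and 6357 of 7764 over all autosomes. Among the other listed genes, the DNA repair gene ERCC1 had 2, 2, 0 and 0 peaks, whereas the cytokine gene TGFB1 had 0, 0, 2 and 1, the adaptor gene CRKL 0, 0, 2 and 3 and the non-muscle myosin gene MYH9 0, 0, 2 and 2. The acetyltransferase gene EP300 had 4, 1, 1 and 0. No peak was found in or within 3 kb of 13 of these 40 genes in any library. The share with none was 40.8% of all genes on the chromosomes and 25.9% of all autosomal genes. The 13 included the uroplakin genes UPK1A and UPK3A, whose proteins coat the urothelial surface, the cyclin E gene CCNE1, the kinase genes AKT2 and JAK3, and KEAP1, the sensor of oxidative stress. Of the plasminogen system, the urokinase receptor gene PLAUR had 1, 0, 0 and 0 peaks and the serine protease gene HPN had none.

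Long genes carried many peaks. TTC28 (701.8 kb) had 24, 17, 22 and 27 peaks in RT112 replicates 1 and 2 and UM-UC-3 replicates 1 and 2, and SYN3 (550.6 kb) had 22, 19, 22 and 19. On chromosome 19 the zinc finger gene ZNF536 (488.7 kb) had 23, 19, 27 and 21. The calcium channel gene CACNA1A (426.6 kb), on 19p, had 19 and 12 for RT112 and 30 and 35 for UM-UC-3, and the mucin gene MUC16 (161.5 kb), which encodes the antigen CA125 and also lies on 19p, had 12, 7, 15 and 13. EFCAB6 (283.6 kb), on chromosome 22, had 22, 12, 15 and 14.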

How the data were processed

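PAI-1 ChIP-seq was performed by the authors on 2 libraries of each cell line with the MAGnify system and anti-PAI-1 clone 3F2. Per the methods and the submitters' processing notes, FastQC, Trimmomatic, Bowtie 1.1.1 with default parameters (hg19), Picard removal of duplicates and MACS2 2.1.0.20140616 were used. The deposited peak lists give a score for each peak, taken here to be −log10 of either the p-value or the q-value from MACS2; which of them, and the control used in calling, are not given in the sources used here. Legends in the study name a false discovery rate for bound probe sets, without tying it to the deposited lists. Identical intervals were counted once with the highest score, and a peak was placed by its midpoint. The genome was GRCh37 and gene models were GENCODE 44 mapped to it. Bins of 1 Mb with at least 50% of bases outside gaps were kept. Densities were divided by the autosomal mean of each library, which removes differences in the number of peaks called. Cell lines were compared by exact permutation over libraries, computed in Python 3.11.15 (scipy 1.17.1, pandas 2.3.3, numpy 2.4.6; plots by matplotlib 3.10.9). The scripts were tested on simulated data. Depth is unknown. The members and gene lists were chosen with earlier results of these data known. Named were the genes of the cancer and urothelium and plasminogen lists, up to 5 genes with the most peaks, the best ranked peaks, and the 3 highest and 3 lowest bins per line; families and other bins were chosen for their gene clusters or position, some after their values were seen. Some items that this rule names are not reported here. Alternatives varied the peaks counted, bin size, gene measure, location class, overlap and libraries.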

Additional observations from a re-analysis of the deposited data

Results flagged for a closer look

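In 11 of the 91 bins of 1 Mb, both libraries of one cell line lay above the autosomal mean and both of the other below it. The difference between the lines was not tested in any of these bins, and copy number was not measured. RT112 was above in 6 bins (6.59%, beside 10.7% of all autosomal bins) and UM-UC-3 in 5 (5.49%, beside 10.9%). Differences below are relative densities, UM-UC-3 minus RT112.

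Among the bins with RT112 above, 4 lie on 19q. The difference was -0.617 at chr19:40000001-41000000, -0.554 at chr19:55000001-56000000, which holds genes of the LILR and KIR immune receptors, -0.504 at chr19:34000001-35000000 and -0.413 at chr19:56000001-57000000, which holds NLRP genes of the inflammasome family. On chromosome 22 it was -0.362 at chr22:48000001-49000000 and -0.206 at chr22:31000001-32000000. In the last of these, UM-UC-3 replicate 2 was at 0.989, close to the mean, as was RT112 replicate 1 at chr22:48000001-49000000, at 1.008.

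With UM-UC-3 above, the difference was 0.752 at chr19:24000001-25000000, next to the centromere with the zinc finger genes ZNF726 and ZNF254, 0.455 at chr19:9000001-10000000, which holds olfactory receptor and zinc finger genes, and 0.265 at chr19:13000001-14000000, in which CACNA1A lies. It was 0.361 at chr19:28000001-29000000, which has no protein-coding gene start, and 0.137 at chr22:17000001-18000000. RT112 was within 0.03 of the mean in 1 or both libraries of the last 2 bins. At chr19:13000001-14000000 the UM-UC-3 libraries were also close to the mean, at 1.006 and 1.014.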

How the results depend on the processing

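The difference between the lines on chromosome 19 turned to -0.0543 when only peaks found in the other replicate were counted, and the cause was not tested. Relative density moved by more than the replicate SD with the 25% of peaks of highest score (chromosome 19: 0.825 in RT112, 0.963 in UM-UC-3; chromosome 22: 0.964 and 0.724), with peaks found in the other replicate (0.827 and 0.772 on chromosome 19; 0.777 on chromosome 22 in UM-UC-3) and with the median over bins (0.658 on chromosome 19 in RT112; 0.783 on chromosome 22 in UM-UC-3). It stayed below 1 in each. Bin density against GC content gave a rho of -0.536 (RT112) and -0.744 (UM-UC-3) in bins of 500 kb, -0.666 and -0.855 in bins of 2 Mb and -0.412 and -0.662 with the highest scores. Against genes it gave -0.446 (500 kb) and -0.442 (2 Mb) in UM-UC-3, -0.302 and -0.298 with the highest scores, and -0.248 and -0.299 with the share of bases in genes. The promoter share was 27.7% and 28.5% by midpoint, 16.5% and 17.04% with protein-coding genes only, and 31.0% in RT112 with peaks found in the other replicate. The overlap of UM-UC-3 replicates fell to 62.5% when both lists were cut to the 25% of highest score. Against the full list of the other replicate, 91.3% and 87.6% of the UM-UC-3 peaks in the highest 25% of scores were refound. The overlap between lines fell to 3.82% at a reciprocal overlap of 50%. Genes with a peak at the start numbered 72 and 128. Leaving out 1 library in turn gave rho with GC of -0.784 to -0.773 and with genes of -0.500 to -0.460 in UM-UC-3, and 526 to 700 genes with a peak in RT112, with 700 when replicate 2 was left out beside 454 for both. Pairing libraries by replicate number (replicate block) left the differences at 0.0311 and -0.0530 with an exact paired permutation p = 0.5, the smallest possible, and changed no call; replicate 1 lay below the line mean in both lines on both chromosomes, and the labels do not tie the numbers across lines. Dividing by the median of the autosomes, an alternative chosen after seeing the data, moved no density by more than the replicate SD. Leaving out a library could not be done for the overlap of replicates.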

Other observations

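Short motifs in the 200 bp around peak midpoints, searched on both strands, varied in frequency. The GC box GGGCGG occurred in 3.04%, 2.53%, 3.01% and 3.24% of the peaks on chromosomes 19 and 22 in RT112 replicates 1 and 2 and UM-UC-3 replicates 1 and 2, beside 7.46% of all windows of that length there. TGANTCA, which is the core bound by AP-1, occurred in 5.59%, 5.07%, 5.28% and 5.54%, beside 5.33%. Runs of at least 12 A or T bases, as in the tails of Alu repeats, occurred in 3.49%, 2.98%, 5.53% and 4.80%, beside 7.47%. A match is a description of the letters and not of a bound site.

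With 2 libraries per line, an exact permutation test cannot give a p below 0.333. Without read counts, inputs or copy number, the densities of the lines can be compared only relative to each library's own autosomal mean.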
